A study of Mus musculus with 3 samples.

Results

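A DMC1 hotspot for which no PRDM9 variant was named, on an autosome and away from H3K4me3 peaks that form without PRDM9, is called an unassigned site here. These sites carry the class UNK in the authors' deposited table, which names for most hotspots the PRDM9 variant that activated it and marks any overlap with a PRDM9-independent H3K4me3 peak. The rule took 1554 of the 24586 sites in the table, or 7.20% of the 21581 autosomal sites away from such peaks. Of the other UNK sites, 362 overlapped a peak on an autosome and 58 lay on the X away from peaks. The header does not define UNK and does not say which measurements entered the inference. UNK was read only as naming no variant, and whether signal strength entered the class is unknown. The sites set beside them were the 11408 CAST sites and the 8605 HUM sites that also lay on autosomes away from such peaks, named for the PRDM9 variant inferred for each.

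PRDM9 is a zinc-finger methyltransferase of meiotic cells. It binds DNA motifs, trimethylates lysine 4 of histone H3 (H3K4me3) on the flanking nucleosomes and so directs where SPO11 cuts both strands of the DNA. The cut ends are resected to single strands, which the recombinase DMC1 coats while it searches for the homologue, and DMC1 ChIP-seq recovers those strands. The zinc fingers differ between Prdm9 alleles, so each allele has its own set of hotspots.

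The libraries listed for these values came from whole testis of F1 males of a cross of C57BL/6J (B6) and CAST/EiJ (CAST). Their Prdm9 genotype was HUM/CAST, a humanized allele beside the CAST allele. The DMC1 library was from a 10-week-old male and the H3K4me3 library from an adult male, from chromatin digested with micrococcal nuclease according to its title. The header credits the raw H3K4me3 data to Li and colleagues, and whether the H3K4me3 values come from this library is not stated. There was 1 library per assay, so a difference between classes is a difference within 1 set of values per mark and has no replicate check. No p-value was computed, since sites of 1 library are not replicates. The depth behind each value was unknown, and no animal without either allele was measured. The table gives a DMC1 signal, an H3K4me3 enrichment and, for each mark, a B6 share, which is the part of the signal that came from the B6 homologue. Both signals have units of the authors' own, and their ratio was compared only between sites. Whole testis holds cells of many stages and types, and the table holds no marker by which its makeup could be checked. In such material fewer cells with a break at a site, and breaks that persist for a shorter time in each cell, cannot be told apart.

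The sequence is given for 3 of the 4 unassigned sites whose DMC1 centre fell within an annotated promoter window (250 bases before to 50 after a gene's start), as the places where the data touch a gene's start most closely. The fourth was at Gm46484, an uncharacterised gene model, 37 bases past its start. The 250 bases before each start are shown 5′ to 3′ in the gene's direction, with the bases within 20 of the DMC1 centre in capitals. They are RefSeq sequence of GRCm38.p6, which is mm10, and thus give the B6 reference and not the CAST homologue.
Sumo3 (chr10:77613459-77613708, plus strand): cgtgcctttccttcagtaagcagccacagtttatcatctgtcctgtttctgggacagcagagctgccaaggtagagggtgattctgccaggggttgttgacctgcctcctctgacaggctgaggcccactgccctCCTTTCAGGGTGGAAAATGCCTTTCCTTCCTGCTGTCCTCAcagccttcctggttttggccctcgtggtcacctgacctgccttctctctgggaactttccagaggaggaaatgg
Nfia (chr4:97581693-97581942, plus strand): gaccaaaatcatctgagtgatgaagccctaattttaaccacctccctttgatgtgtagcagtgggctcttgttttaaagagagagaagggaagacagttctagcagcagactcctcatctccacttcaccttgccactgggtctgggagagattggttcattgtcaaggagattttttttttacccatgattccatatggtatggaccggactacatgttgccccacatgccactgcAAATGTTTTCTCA
Sost (chr11:101967016-101967265, minus strand): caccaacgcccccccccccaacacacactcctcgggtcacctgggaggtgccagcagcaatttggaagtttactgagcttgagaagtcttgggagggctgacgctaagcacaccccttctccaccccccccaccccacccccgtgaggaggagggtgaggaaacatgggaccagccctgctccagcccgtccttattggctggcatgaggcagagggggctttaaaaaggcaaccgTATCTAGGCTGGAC
Sumo3 encodes a small ubiquitin-like modifier, and its site lay 95 bases before the start, with DMC1 394, H3K4me3 44.4 and a DMC1 B6 share of 0.474. Nfia encodes a transcription factor of the nuclear factor I family. Its site lay 8 bases past the start, with DMC1 115, H3K4me3 17.5 and a DMC1 B6 share of 0.0345, so nearly all of its DMC1 signal was on the CAST homologue. Sost encodes sclerostin, a secreted inhibitor of bone formation, and its site lay 7 bases past the start with DMC1 29.8, H3K4me3 12.6 and a share of 0.107.

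The 13-base motif of the common human PRDM9, CCNCCNTNNCCNC, was searched on both strands of each promoter window of 300 bases. It was in 0 of the 4 windows that held an unassigned site. Among windows that held an assigned site it was in 0 of 26 for CAST and in 4 of 17 for HUM, which is 23.5% (exact 95% interval 6.81% to 49.9%). Over all 31396 windows it was in 6.35%. A match is a description of letters and not a binding site, and 4 windows are too few to set apart from that share. The windows of 2 of the 4 sites were rich in G and C, at 61.2% before Sost and 55.6% before Sumo3, against 44.8% before Nfia.

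Unassigned sites were weak hotspots. Their median DMC1 signal was 19.7 (quartiles 13.3 and 65.2, range 7.50 to 893), against 83.4 for CAST (32.2 and 220) and 52.8 for HUM sites (24.8 and 126). The difference of medians was -2.08 on the log2 scale against CAST, or 4.22-fold lower, and -1.42 against HUM, or 2.68-fold lower. The unassigned sites were lower on 19 of 19 autosomes in both comparisons. Against CAST the difference ran from -2.56 on chromosome 8 to -1.53 on chromosome 19, and against HUM from -1.64 to -0.93 on the same chromosomes. The quartiles of the classes overlapped, so a single site's signal did not tell its class. The unassigned sites carried 3.91% of the summed DMC1 signal of the 21581 sites, a smaller share than their 7.20% of the sites.

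The difference in medians hides an uneven distribution. Counted in steps of 0.5 on the log2 scale, the unassigned sites were most frequent at DMC1 11.3 to 16, with 350 sites. They came down to 58 sites at 45.3 to 64. The next steps held 68 sites, then 83 at 90.5 to 128, then 64. No counting error was computed for these steps, so the second rise is uncertain. CAST and HUM sites each spread over the whole range with a single broad maximum for HUM and a nearly level stretch for CAST from 16 to 362. A cut at a DMC1 signal of 60, near the low point and chosen after the distribution was seen, put 1150 unassigned sites (74.0%) in a weak group and 404 (26.0%) in a strong group, with median signals of 16.0 and 156. The same cut left 41.7% of CAST sites and 54.1% of HUM sites in the weak group. In the weakest 10% of all the sites, with DMC1 from 7.50 to 15.9, 571 of 2158 were unassigned, or 26.5% (exact 95% interval 24.6% to 28.4%). In the next 10% the share was 13.2%, and from there upward, past the weakest 30%, it lay between 2.87% and 4.59% with no steady order.

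**Figure D1:**
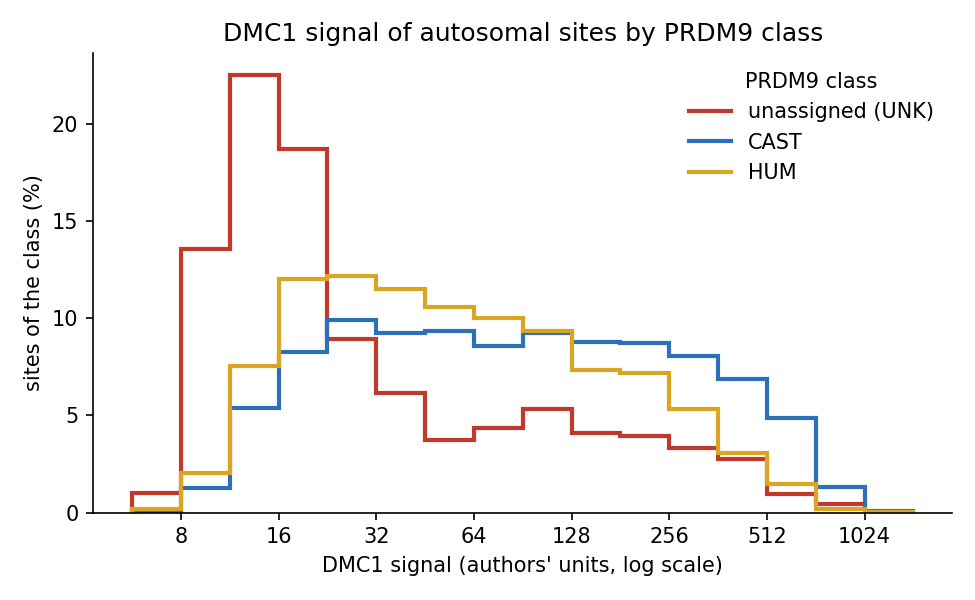
Share of each class's sites (percent, vertical axis) by DMC1 signal in the authors' units (log scale, horizontal axis) for the 1554 unassigned, 11408 CAST and 8605 HUM autosomal sites away from PRDM9-independent peaks. The unassigned sites have a high maximum of 22.5% at 11.3 to 16 and a low second rise of 5.34% at 90.5 to 128.

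H3K4me3 was also lower, by less. The median enrichment was 6.27 at unassigned sites (quartiles 3.50 and 13.7), against 12.5 for CAST and 9.98 for HUM sites. The log2 differences were -0.99 against CAST (1.99-fold lower) and -0.67 against HUM (1.59-fold lower), with the unassigned sites lower on 19 of 19 autosomes. On chromosome 17 they came to -0.32 and -0.09. DMC1 for a given H3K4me3 was lower too: the median ratio was 4.53, against 7.15 and 5.65, a log2 difference of -0.66 against CAST and -0.32 against HUM. The ratio was lower on 19 of 19 autosomes against CAST and on 18 of 19 against HUM, the exception being 0.03 higher on chromosome 18. The difference in ratio against HUM depended on how values were treated: it was -0.11 with the smallest value of each mark added as a pseudocount, and -0.11 without the sites whose H3K4me3 value occurs again elsewhere in the table, which were 69.7% of the unassigned sites, 63.3% of CAST and 67.9% of HUM sites. Without the lowest 10% of H3K4me3 it was -0.52. The sources used here do not say how these repeated values arose. For comparison, the 362 UNK sites on PRDM9-independent peaks had a median H3K4me3 of 31.4 and a median DMC1 signal of 35.7.

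At like H3K4me3 the DMC1 signal of unassigned sites was still lower, most of all at middling H3K4me3. All 21581 sites were put in 20 equal bins of H3K4me3, and medians were compared within bins. The mean difference in log2 DMC1 over bins was -0.70 against CAST and -0.46 against HUM. The unassigned sites were lower in 20 of 20 bins against CAST and in 19 of 20 against HUM. The gap was widest in bin 9, with H3K4me3 from 8.55 to 9.59, where the median DMC1 was 22.1 at 60 unassigned sites, against 54.3 for CAST and 46.8 for HUM sites. In the upper 7 bins, with H3K4me3 above 15.9, the difference against HUM lay between -0.22 and 0.21, and against CAST between -0.69 and -0.24. Unassigned sites of high H3K4me3 thus had a DMC1 signal near that of HUM sites of like H3K4me3. Across sites the Spearman correlation of DMC1 with H3K4me3 was 0.703 over the 1554 unassigned sites, 0.785 for CAST and 0.723 for HUM, all from the same pair of libraries.

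**Figure D2:**
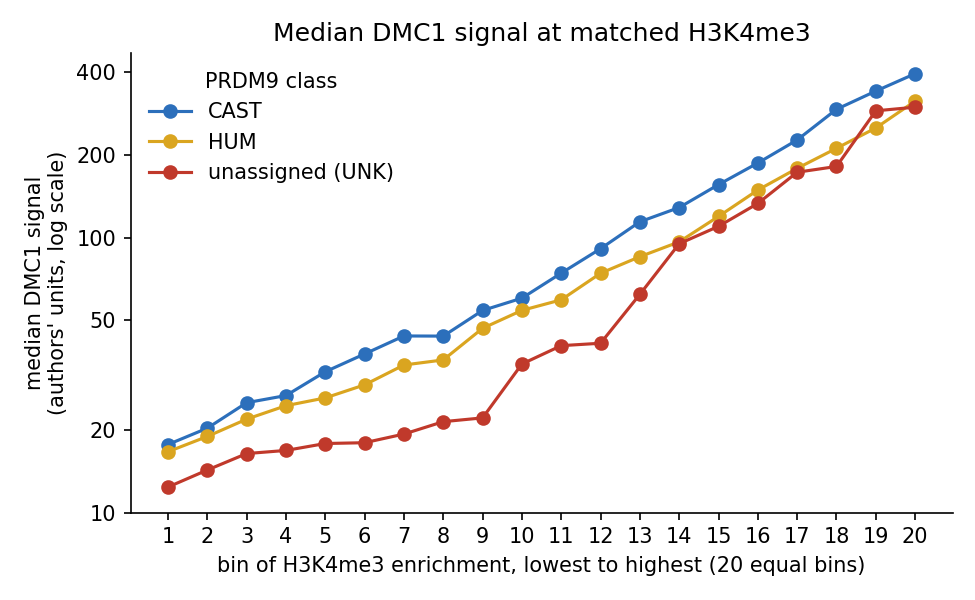
Median DMC1 signal (authors' units, log scale, vertical axis) in 20 equal bins of H3K4me3 enrichment (horizontal axis), 1 line per class. The unassigned sites stay between 12.4 and 22.1 up to bin 9, while CAST sites reach 54.3 and HUM sites 46.8, and they lie close to HUM sites from bin 14 on.

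A B6 share near 0 means that nearly all signal was on the CAST homologue, near 1 on the B6 homologue. Hotspots on 1 homologue are known where the strains differ in sequence at the PRDM9 motif. A DMC1 share was given for 1304 unassigned sites (83.9%, against 94.0% of CAST and 92.4% of HUM sites). It was under 0.1 at 283 of them, or 21.7% (exact 95% interval 19.5% to 24.0%), where the share over all sites of the comparison was 14.4%. The CAST class had 10.1% of sites under 0.1 and the HUM class 19.0%. It was over 0.9 at 212 unassigned sites, or 16.3% (14.3% to 18.4%), against 19.3% of all sites, 21.2% of CAST and 17.4% of HUM sites. The interval of the unassigned sites thus lay above the CAST class's value for the CAST homologue and below it for the B6 homologue, while it lay just above the HUM value for the former and held it for the latter. More unassigned sites were under 0.1 than over 0.9 on 11 of 19 autosomes, so the direction was not shared by all chromosomes.

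The clearest difference was in the middle. A DMC1 share of 0.3 to 0.7, with both homologues used, was found at 407 unassigned sites, or 31.2% (28.7% to 33.8%), against 45.6% of all sites, 49.6% of CAST and 42.5% of HUM sites. The signal was instead in part skewed: 18.5% of the unassigned sites had a share of 0.1 to 0.3 (10.5% of CAST, 12.3% of HUM) and 12.3% a share over 0.7 up to 0.9 (8.68% and 8.85%). H3K4me3 had the same form with fewer extremes. Its share was given for 1373 unassigned sites and was from 0.3 to 0.7 at 702 of them, or 51.1%, against 60.3% of all sites. It was under 0.1 at 75 (5.46%, against 5.16% of all) and over 0.9 at 70 (5.10%, against 9.46% of all). A share of 0.1 to 0.3 was again more frequent, at 21.8% against 7.57% of CAST and 13.8% of HUM sites. Across the 1270 unassigned sites with both shares the marks followed each other, with a Spearman correlation of 0.874 (CAST 0.847, HUM 0.870).

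**Figure D3:**
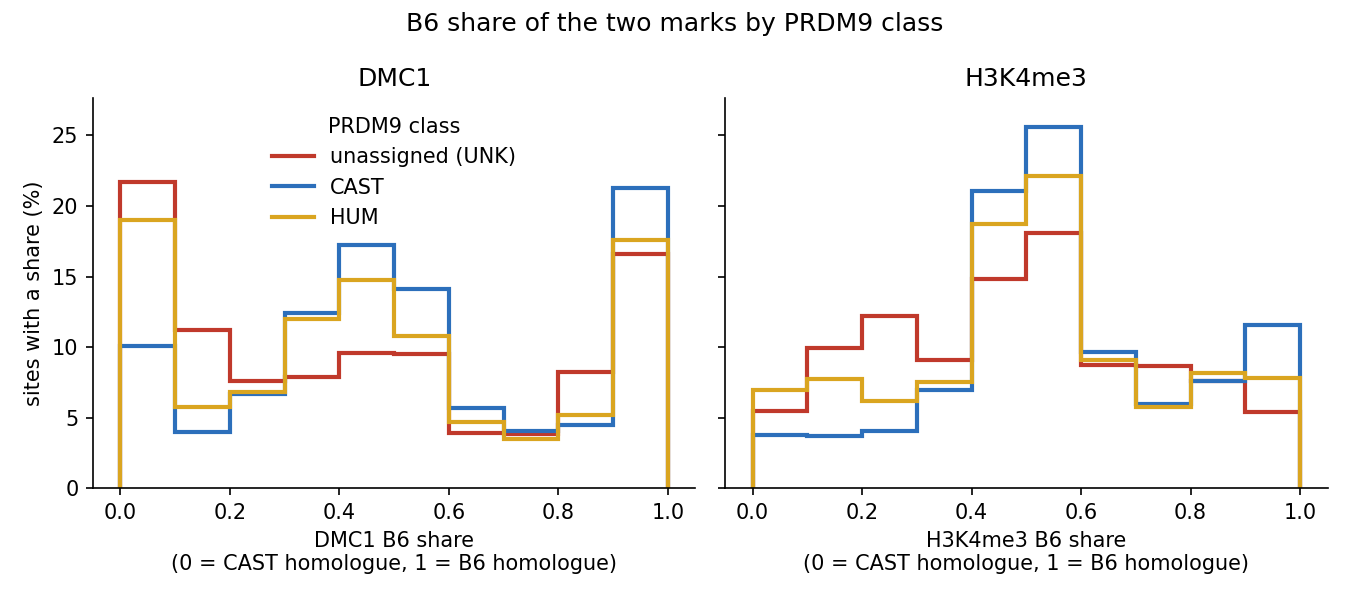
Percent of sites (vertical axis) by B6 share in steps of 0.1 (horizontal axis), for DMC1 on the left and H3K4me3 on the right, 1 line per class. Unassigned sites have fewer DMC1 shares near the middle than either assigned class, and more H3K4me3 shares from 0.1 to 0.3.

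The skew toward the CAST homologue was largest at weak sites. In the 3 bands of DMC1 up to 15, 15 to 30 and 30 to 60, the share under 0.1 was 19.1%, 23.3% and 39.0% of the unassigned sites (exact interval of the last 31.2% to 47.1%). In the same bands it was 8.98%, 11.0% and 12.5% of CAST sites and 5.58%, 13.6% and 20.2% of HUM sites. The intervals of the unassigned sites lay above those of both assigned classes in each of these bands. Above 60 the shares of the unassigned sites were 18.9%, 15.2% and 11.4%, below the 23.5%, 22.5% and 21.6% of HUM sites and above the 11.2%, 11.0% and 6.25% of CAST sites. Shares over 0.9 went the other way, with 14.5% of the weak and 20.5% of the strong unassigned sites. The rise was larger for CAST sites, from 11.6% to 27.4%, while HUM sites had 17.8% and 16.9%. Balanced shares of 0.3 to 0.7 took 25.2% of the weak group as a whole (CAST 50.3%, HUM 39.9%) and 45.3% of the strong group (CAST 49.1%, HUM 45.3%). The median DMC1 share was 0.333 in the weak group and 0.495 in the strong one (CAST 0.444 and 0.522, HUM 0.458 and 0.428). The number of reads behind a share is unknown, so its precision at weak sites cannot be given. CAST and HUM sites of the same DMC1 signal were measured in the same DMC1 library, and their shares are the values to set beside those of the weak unassigned sites. With CAST sites weighted to the unassigned sites' DMC1 bands, the difference in sites over 0.9 changed sign, from -4.90 to 1.98 percentage points, and the excess under 0.1 against HUM went from 2.72 to 6.66 points.

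**Figure D4:**
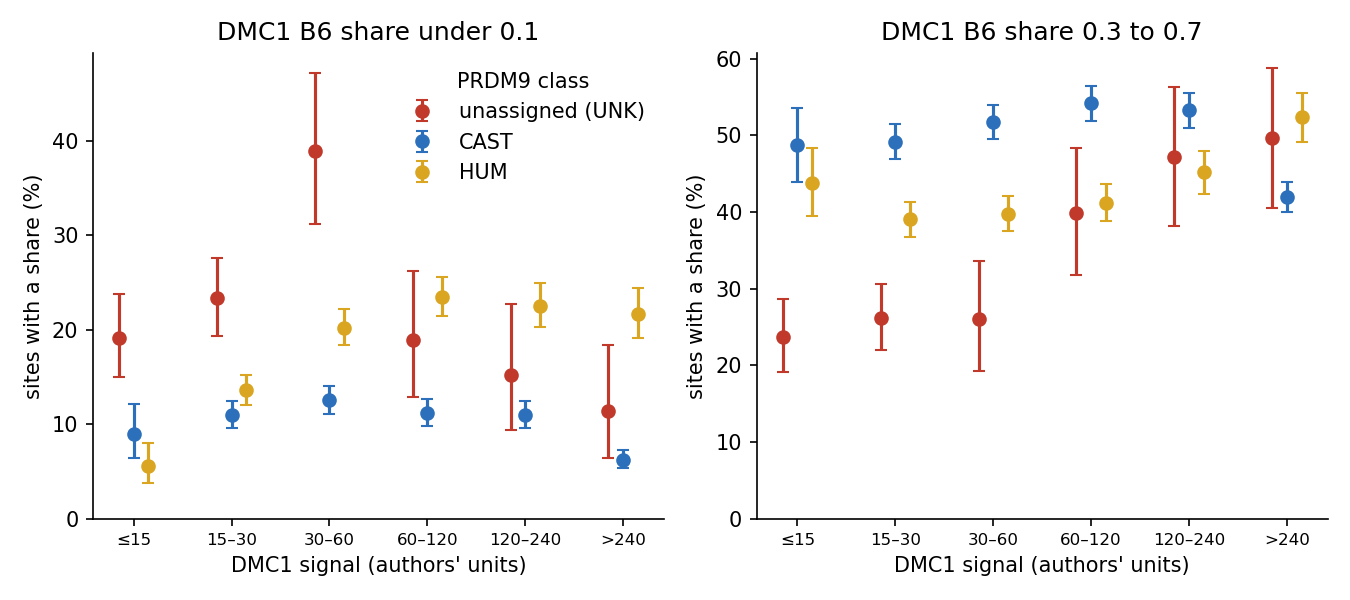
Percent of sites with a DMC1 B6 share under 0.1 (left) or from 0.3 to 0.7 (right) in 6 bands of DMC1 signal (horizontal axis, authors' units), with exact 95% intervals that cover counting error only. Up to a signal of 60 the unassigned sites have more sites under 0.1 and fewer from 0.3 to 0.7 than both assigned classes, and above 60 they lie close to the HUM sites in the right panel.

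At a few unassigned sites the marks parted. Of the 639 with an H3K4me3 share of 0.3 to 0.7 and a DMC1 share, 47 had a DMC1 share under 0.1, or 7.36% (5.45% to 9.66%), against 2.12% of CAST and 3.67% of HUM sites. A further 28 had one over 0.9, or 4.38% (2.93% to 6.27%), against 1.39% and 1.95%. The classes were not matched in DMC1 signal here, and the precision of a share at weak sites is unknown. Where H3K4me3 was even, with a share of 0.45 to 0.55, the median DMC1 share was 0.461 at 235 unassigned sites, 0.45 at CAST and 0.434 at HUM sites.

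Sites with H3K4me3 on 1 homologue have more DMC1 for their H3K4me3 in the assigned classes, and less so among the unassigned. The median log2 ratio of DMC1 to H3K4me3 was higher at sites with an H3K4me3 share under 0.1 or over 0.9 than at those with 0.3 to 0.7 by 1.17 for CAST, 0.89 for HUM and 0.22 for unassigned sites. The last value rests on 145 against 702 sites, and was 0.28 for the 70 sites on the B6 homologue and 0.19 for the 75 on the CAST homologue. Within 5 equal bins of H3K4me3 the gains were 1.19, 0.99 and 0.62 in the same order, so the gap between the classes was smaller at like H3K4me3. Over all H3K4me3 levels together, the one-homologue unassigned sites were weaker hotspots, with a median DMC1 signal of 24.6, than the one-homologue CAST sites, at 221, and HUM sites, at 96.0.

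The strongest unassigned site had DMC1 893 and lay inside Apoc2, an apolipoprotein that activates lipoprotein lipase (chromosome 7, 19676797, mm10). Its H3K4me3 was 52.2, and both marks were on both homologues, with shares of 0.492 for DMC1 and 0.464 for H3K4me3. Next came a site 11.4 kb from Pggt1b, a subunit of a protein prenyltransferase (chromosome 18, 46223986), with DMC1 842 and a share of 0.815. The site inside Pcdh9, a protocadherin (chromosome 14, 93257165), had DMC1 834 on an H3K4me3 of only 20.6, and a share of 0.982. That site also had the highest ratio of DMC1 to H3K4me3, 40.6, among the 777 unassigned sites whose ranks in the marks summed above the median, and its nearest assigned site was 202 kb away. These 3 sites thus reached similar DMC1 signals with different H3K4me3 and different use of the homologues.

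The following 7 by DMC1 signal had values from 696 to 785. They lay 195 kb from Fam155a, inside Ywhaz (a 14-3-3 adaptor protein), Tspan5 (a tetraspanin) and Map3k13 (a kinase of the JNK pathway), 5.17 kb from Bok (a BCL-2 family protein), and inside Mtmr4 (a lipid phosphatase) and Sh3bp5. The site in Map3k13 was on the B6 homologue, with a DMC1 share of 0.971. The other 6 had DMC1 shares from 0.383 to 0.678. Of the 10 strongest sites, 2 were therefore over 0.9 and none was under 0.1. Among unassigned sites with DMC1 over 240 and a share, 18.7% were over 0.9 and 11.4% under 0.1. Among all sites of the comparison it was 19.3% and 14.4%. So few sites cannot be set apart from these shares.

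H3K4me3 was highest at a site inside Cnga3, a channel of cone photoreceptors (chromosome 1, 37233325), with 100.0 and a DMC1 signal of only 19.9. Its ratio of 0.199 was the lowest among the same 777 sites. Its H3K4me3 was even between homologues, with a share of 0.494. The next highest, inside Insr, the insulin receptor (chromosome 8, 3274076), had H3K4me3 75.8 and DMC1 351, so a like H3K4me3 went with a DMC1 signal many times higher. The other 3 had H3K4me3 from 69.8 to 71.6 and DMC1 from 184 to 382. They lay 32.8 kb from Ascl2, a transcription factor of the placenta, inside Zfp423, a zinc-finger transcription factor (chromosome 8, 87674360), and inside Tbcd, a tubulin-folding cofactor.

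**Figure D5:**
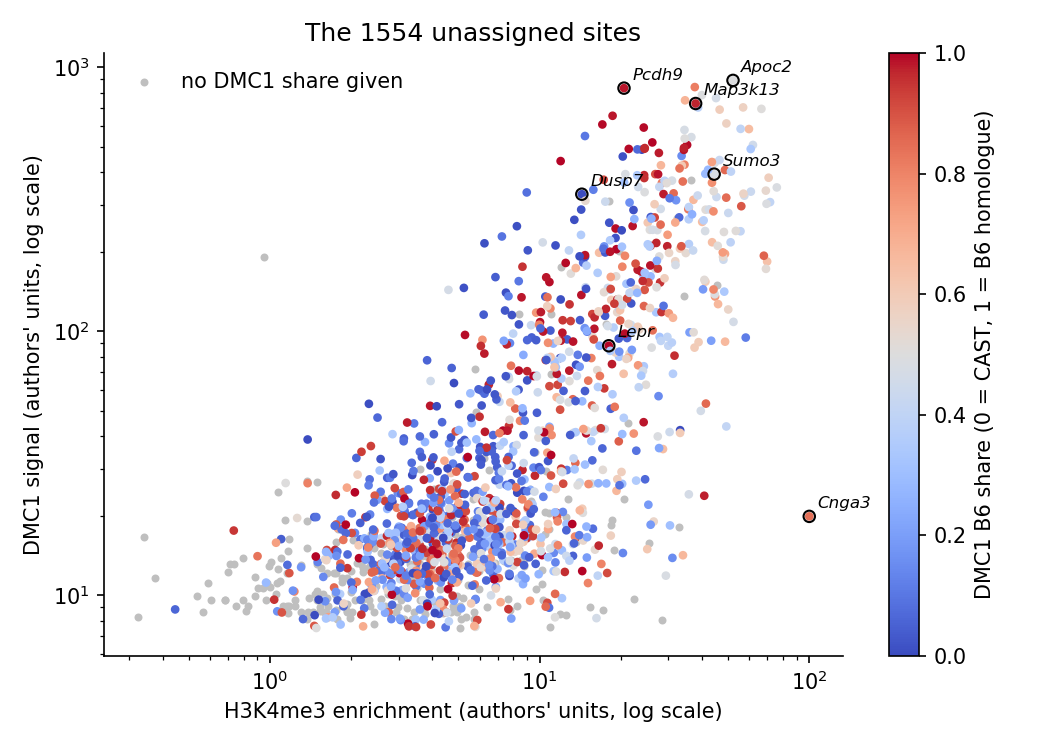
DMC1 signal (vertical axis) against H3K4me3 enrichment (horizontal axis) of the 1554 unassigned sites, both in the authors' units on log scales, with 1 point per site coloured by DMC1 B6 share and grey where none is given. Most points lie at low values of both marks, and the site in Cnga3, at H3K4me3 100.0 and DMC1 19.9, stands apart from the trend.

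Among the 777 sites ranked by ratio, the highest ratios were at sites whose DMC1 signal was skewed to 1 homologue. After Pcdh9 came sites near Ceacam15 (ratio 37.5, DMC1 share 0.0841), inside Gphn, a scaffold of inhibitory synapses (37.3, 0.0992), far from Adgrl2 (36.9, 0.997) and inside Dok5, a docking protein (35.5, 0.995). All 5 thus had a DMC1 share under 0.1 or over 0.9. Their H3K4me3 shares, in the same order, were 0.902, 0.282, 0.245, 0.966 and 0.949. Of all unassigned sites with a DMC1 share, 21.7% were under 0.1 and 16.3% over 0.9. The lowest ratios of the 777 after Cnga3 were 0.403, 0.417, 0.432 and 0.446, at sites 182 kb from Rpl38, 44.4 kb from Mrgprb4, inside Zfp950 and 17.5 kb from Wdr1. Their DMC1 signals lay between 9.64 and 14.2 and their H3K4me3 shares between 0.43 and 0.585. Of all unassigned sites with an H3K4me3 share, 51.1% had one from 0.3 to 0.7. The DMC1 shares were 0.481 near Rpl38, 0.667 near Mrgprb4 and 0.154 near Wdr1, with none given in Zfp950, and 0.84 in Cnga3. Outside the 777, where 1 of the marks was low, more extreme ratios occurred: the site at Ubqln1 had DMC1 191 on an H3K4me3 of 0.948, and that at Gm3594 DMC1 8.04 on 28.3. These 2 were picked out after their values were seen.

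Sites used on 1 homologue alone were ranked among the 379 unassigned sites with DMC1 over 62.6 and with both shares, since the other sites include many with a share of exactly 0 or 1. Among these the B6 homologue was used most completely at sites inside Lepr, the leptin receptor (chromosome 4, 101745527), with a DMC1 share of 1, DMC1 88.2 and H3K4me3 share 0.946, and 172 kb from Wwox, also with 1. Sites inside Itga9, an integrin, and 2.33 kb from P4ha1, a collagen hydroxylase, had 0.998 and 0.996, and the site far from Adgrl2 belonged here too. In the same set the CAST homologue was used most completely 3.19 kb from Dusp7, a MAP kinase phosphatase (chromosome 9, 106365375), with a share of 0.00354, DMC1 331 and H3K4me3 share 0.0895. A second site inside Zfp423 (chromosome 8, 87893485) had 0.00376, so that gene held a balanced and a CAST-homologue site. The sites 2.89 kb from Popdc3, inside Cntn1, a neuronal adhesion protein, and 16.1 kb from Mro had 0.00532, 0.00645 and 0.00699. At these sites H3K4me3 was skewed the same way as DMC1, with H3K4me3 shares from 0.897 to 0.966 on the B6 side and from 0.0362 to 0.0895 on the CAST side. The sites were picked for the most extreme DMC1 shares, so that choice alone favours less extreme H3K4me3 shares. No difference between the marks is read from them.

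Over all DMC1 levels together, a smaller share of the unassigned sites than of either assigned class lay inside genes. Of the 1554, 761 lay within the span of a protein-coding gene, or 49.0% (exact 95% interval 46.5% to 51.5%), against 53.7% of all sites, 52.1% of CAST and 56.7% of HUM sites. The weak group was at 46.4% (CAST 48.9%, HUM 55.3%), while the strong group was at 56.2%, above CAST sites (54.4%) and below HUM sites (58.4%). No interval was computed for these groups. The weak group made up 74.0% of the unassigned sites, against 41.7% of CAST and 54.1% of HUM sites, so part of the difference against CAST goes with this mix. The annotation used here gave spans without exons, so exon and intron could not be assigned. A gene's start, known here on 18 autosomes, lay within 1 kb of 27 of 1506 unassigned sites, or 1.79% (1.18% to 2.60%), against 1.29% of all sites, a difference within the interval. The strongest of these 27 after Sumo3 lay 618 bases from the start of Gm11961 (DMC1 390), 797 bases from that of Il5, a cytokine of eosinophils (290, share 0.822), and 937 bases from that of Il12a, a cytokine subunit (271, share 0.0331). The fifth, with DMC1 157, lay 385 bases from the start of Gm33086. Unassigned sites took from 5.48% of the sites on chromosome 18 (48 of 876) to 8.45% on chromosome 14 (83 of 982).

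At 5 kb and in median distance, unassigned sites lay about as near to assigned sites as CAST and HUM sites did. A CAST or HUM site lay within 5 kb of 151 unassigned sites, or 9.72% (8.29% to 11.3%), against 8.89% of all sites, with 8.46% for CAST and 9.31% for HUM sites to other assigned sites. The median distance to the nearest assigned site was 30.6 kb, between that of CAST sites (32.1 kb) and HUM sites (29.0 kb). Within 1 kb the picture differed: 11 unassigned sites, or 0.708% (0.354% to 1.26%), had an assigned neighbour, against 0.0789% of CAST and 0.139% of HUM sites. Of these neighbours 8 were CAST and 3 were HUM, at 681 to 970 bases.

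The unassigned site was the weaker of the pair in 9 of the 11, with a median DMC1 signal of 45.3 against 238. Unassigned sites were also weaker over all sites, with a median of 19.7 against 83.4 for CAST and 52.8 for HUM sites. In Myo10, an unconventional myosin, the unassigned site had DMC1 93.2 and its CAST neighbour 770 bases away 658, with DMC1 shares of 0.91 and 0.981. In Mapkap1, a subunit of mTOR complex 2, the values were 109 and 552, with shares of 0.465 and 0.464. The DMC1 shares of a pair lay within 0.2 of each other in 11 of 11 pairs, which include balanced, B6 and CAST sites. How often this holds for close pairs of assigned sites, or for sites farther apart, was not counted. The count therefore does not set these pairs apart from others. In Il16, a cytokine, the shares were 0.982 and 0.981, with a HUM neighbour of DMC1 264 beside an unassigned site of 45.3. The exceptions in strength were the pairs in Tyms, with 21.6 against 20.9, and Nepn, with 21.3 against 16.7, both beside HUM sites. Whether reads of a strong neighbour enter the signal of the weaker site was not tested.

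The share of unassigned sites was also counted within lists of genes, beside their 7.20% of all the sites. In 27 genes of break formation and repair, 2 of 21 sites away from PRDM9-independent peaks were unassigned (exact 95% interval 1.17% to 30.4%). They lay in Ankrd31, a partner of the break-forming machinery (DMC1 38.1), and in Mlh3, a mismatch-repair protein of crossovers (8.17). In 14 genes of the meiotic chromosome axis and the synaptonemal complex it was 1 of 7 (0.361% to 57.9%), in Smc1b, the meiotic cohesin subunit (42.1). In 13 long neuronal genes, listed for their size, it was 14 of 137 (5.70% to 16.6%) in 9 of the genes, led by a site in Nrxn3, a presynaptic neurexin, with DMC1 289 and a share of 0.0191. The intervals of all 3 lists hold the 7.20%. Most of the genes that held any unassigned site held 1 (675 genes), 48 held 2, 6 held 3 and 1 held 4. That gene was Sfi1, a centrosome gene, whose 4 sites were all unassigned, with DMC1 from 14.7 to 26.8. Sequences like Sfi1 occur at several places in the mouse genome, and whether its reads map uniquely was not tested. Fndc3b held 3 of much higher signal, with a median of 310.0 and a range of 17.1 to 372.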

How the data were processed

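DMC1 and H3K4me3 were measured in testis, 1 library each, and the MNase-seq library was not used. Reads were aligned to mm10 with BWA, per the submitters' processing notes, at version 0.7.15 for all but the DMC1 library, whose version the sources used here do not give. Per the file headers, the DMC1 signal and the H3K4me3 signal are intensities from the authors' peak callers, the DMC1 peak centre is the position, and the B6 share is the fraction of the signal on the B6 homologue. The headers credit the raw H3K4me3 data to Li and colleagues; they do not say if that means the H3K4me3 library listed above. Scaling to depth is not given either, so precision per site is unknown. The smallest values were 7.50 for DMC1 and 0.17 for H3K4me3, with no zeros.

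From these, log2 medians were compared without a pseudocount, also within 20 equal bins of H3K4me3 that held at least 5 sites of both classes, weighted by the smaller class; this step was tested on simulated data. Shares of sites have exact Clopper-Pearson 95% intervals, which cover counting error only. Gene spans (20665 protein-coding genes), starts and promoter sequences came from RefSeq GRCm38.p6, and starts on chromosome 18 were not used here. Python 3.11.15, pandas 2.3.3, numpy 2.4.6, scipy 1.17.1 and matplotlib 3.10.9 were used. The unassigned sites and the gene lists were chosen with earlier results of these data known. Sites were named by rank of DMC1, H3K4me3, their ratio (among the 777 with summed ranks above the median) and DMC1 share (among the 379 over the median DMC1 of 62.6 with both shares), by distance to a gene start, by gene list and by unassigned sites per gene; the promoter sites, the close pairs, Fndc3b, Ubqln1 and Gm3594 were named after their values were seen. Alternatives changed 1 choice at a time: pseudocount, means, low values, repeated values, close sites, autosomes, bins, thresholds and distances. Those chosen after seeing the data were values repeated anywhere, matched DMC1, 5 H3K4me3 bins and DMC1 values in exact eighths.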

Additional observations from a re-analysis of the deposited data

How the results depend on the processing

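Of 180 alternatives to 22 results, 145 stayed within the interval of the reported value, including all 114 that left out 1 autosome, 34 moved outside it and 1 changed sign; the cause was not tested. The log2 differences below are against CAST and then HUM sites. With a pseudocount, DMC1 was -1.74 and -1.15 and the ratio -0.40 and -0.11. As means, DMC1 was -1.46 and -0.91, and H3K4me3 against CAST -0.82. Without the lowest 10% of H3K4me3, DMC1 was -1.84 and -1.11, H3K4me3 -0.66 and -0.30 and the ratio -0.89 and -0.52. Without H3K4me3 values repeated on the chromosome, DMC1 against CAST was -2.17. Without those repeated anywhere it was -2.31, H3K4me3 was -0.87 and -0.43 and the ratio -0.52 and -0.11. With 10 bins the matched difference against CAST was -0.73. Among unassigned sites, a DMC1 share over 0.9 (16.3%) became 9.51% over 0.95, 24.1% over 0.8 and 20.5% at DMC1 above the median. A share under 0.1 (21.7%) became 11.5% under 0.05, 32.9% under 0.2 and 14.8% at DMC1 above the median. At matched DMC1 the difference to HUM under 0.1 was 6.66 points, and that to CAST over 0.9 changed sign to 1.98 points. An assigned site lay within 2 kb of 2.38% and within 10 kb of 20.4%. With 5 kb flanks 54.8% were in genes. A start lay within 500 bases of 0.73% and within 5 kb of 10.4%. In 5 bins of H3K4me3 the one-homologue gain was 0.62 for unassigned and 0.99 for HUM sites. Depth per site is unknown, so how precise a share is at weak sites cannot be given. No paired analysis was possible because there was 1 library per assay.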

Other observations

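Some DMC1 signals in the table are exact multiples of 0.125 (to within 1e-09), while most have long decimals. Among unassigned sites 106 of 1554 were of this kind, or 6.82% (exact 95% interval 5.62% to 8.19%), against 0.947% of CAST sites, 0.86% of HUM sites and 13 of the 14 KO sites away from PRDM9-independent peaks. They were weak, with DMC1 from 7.63 to 26.6 and a median H3K4me3 of 2.18 at the unassigned sites. Among sites with DMC1 up to 15 the shares were 17.4% (14.2% to 20.9%) for unassigned, 11.4% (8.91% to 14.2%) for CAST and 8.14% (6.19% to 10.5%) for HUM sites. At like signal the classes were thus closer as a ratio of shares, but not in percentage points. A DMC1 B6 share was given for 37 of the 106, or 34.9%, and for 87.5% of the other unassigned sites. The sources used here do not say how these values arose. Without all such sites the log2 difference in median DMC1 was -2.01 against CAST and -1.35 against HUM, close to the reported values.

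Positions near the chromosome ends were also counted. The first 10 Mb of the chromosomes held 6.69% of them (exact 95% interval 5.50% to 8.05%), against 5.21% of CAST and 4.94% of HUM sites. The last 10 Mb before the last site held 11.8% (10.2% to 13.5%), against 9.80% and 10.6%. Another unassigned site lay within 5 kb of 20 of the 1554, or 1.29% (0.788% to 1.98%). An unassigned site lay that near to 0.783% of all sites, 0.789% of CAST and 0.686% of HUM sites.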
